A study of Mus musculus with 4 samples.

Results

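The genes of the mitochondrial ribosome were followed through a knockdown of Tox4 in mouse epiblast stem cells. Members were all rows of the expression table whose symbol began with Mrpl or Mrps and a number, which gave 75 of 15429 genes, 47 named for the large subunit (Mrpl) and 28 for the small subunit (Mrps). The rule reads symbols only.

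The mitochondrial ribosome translates the few messenger RNAs made from mitochondrial DNA, all of which encode membrane subunits of the respiratory chain and the ATP synthase. Its RNA comes from the mitochondrial genome, but its proteins are encoded in the nucleus, made in the cytosol and imported. Some of these proteins descend from bacterial ribosomal proteins and others were added during the evolution of mitochondria.

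Tox4 encodes an HMG-box protein found with protein phosphatase 1 in the PTW/PP1 complex. The tested cells received 1000 ng of esiRNA (a pool of short interfering RNAs cut enzymatically from a longer duplex) against Tox4, and the control cells received the same amount of esiRNA against luciferase (Luc), a firefly gene. Both groups were the same OE7 line, derived from a post-implantation embryo, carrying an Oct4-Gip reporter transgene and used at passages 21-25. All cells grew on fibronectin in N2B27 medium containing Fgf2 at 12 ng/ml and Activin A at 20 ng/ml, and were transfected with 2 µl lipofectamine 2000. Each group had 2 polyadenylated RNA libraries, and the labels do not say whether these were separate cultures, so p-values measure only the spread between libraries, which may be technical. OE7 is 1 line, and results of other epiblast lines were not analysed here.

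Expression was deposited as FPKM, a read count scaled by transcript length and library size, and whole reads could be worked back from the values, giving 12778047 to 19008811 reads per library. The members held 0.388% and 0.400% of reads in the Tox4 esiRNA libraries and 0.410% and 0.397% in the Luc esiRNA libraries. Tox4 itself was at 8.65 and 8.89 FPKM in Tox4 esiRNA cells and at 16.7 and 17.5 FPKM in Luc esiRNA cells, a fall of 0.89 on the log2 scale (SE 0.05, limma, Benjamini-Hochberg adjusted p = 0.00228). The knockdown was thus partial at the RNA level. Genes were tested if they averaged 1 FPKM or more, and over these 12403 limma on log2(FPKM + 1) called 234 higher (1.89%) and 325 lower (2.62%), together 4.51%, at an adjusted p under 0.05. Pou5f1, which encodes Oct4, averaged 598 FPKM in Tox4 esiRNA cells and 585 FPKM in Luc esiRNA cells. Neural progenitor markers summed to 81.2 and 81.9 FPKM in Tox4 esiRNA cells and 72.6 and 71.6 FPKM in Luc esiRNA cells, with Sox1 and Ncam1 called higher among 3 tested, Ncam1 in 8 of 12 alternative analyses. Nes, the other one tested and the largest part of the sum, was not called. It was at 49.9 and 49.8 FPKM in Tox4 esiRNA cells and at 52.7 and 51.5 FPKM in Luc esiRNA cells. Of the 7 epiblast stem cell markers, Sox2 was called higher (in 7 of 12 alternatives) and Tdgf1 (in 9 of 12) and Cdh1 lower, and the list summed to 1284 and 1312 FPKM in Tox4 esiRNA cells and 1378 and 1344 FPKM in Luc esiRNA cells. Fibroblast markers summed to at most 12.7 FPKM in any library, and the naive and the trophoblast and endoderm markers to less than 3 FPKM each, while the blood markers have no row in the table. The part of these marker shifts in the results below was not tested.

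Nearly every mitochondrial ribosomal protein gene was well expressed in these cells. The 46 tested Mrpl genes had a median level of 41.0 FPKM and the 28 Mrps genes one of 38.5 FPKM, against 11.8 FPKM for all tested genes. Mrpl12, whose product forms the flexible stalk that recruits translation factors, was the highest at 99.2 and 105 FPKM in Tox4 esiRNA cells and 102 and 106 FPKM in Luc esiRNA cells. Both groups spanned the same levels for this gene. Mrpl28 (100.3 FPKM over the 4 libraries), Mrpl42 (94.5), Mrpl34 (88.1) and Mrpl2 (87.4) followed, of which Mrpl2 belongs to the conserved peptidyl transferase region. In the small subunit the highest was Mrps24, a relative of bacterial S3 at the messenger RNA entry, at 75.3 and 78.9 FPKM in Tox4 esiRNA cells and 85.5 and 81.7 FPKM in Luc esiRNA cells. Mrps18c, Mrps28, Mrps16 and Mrps21 averaged 59.1 to 66.5 FPKM.

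By FPKM the family divided into a large set of high genes and a smaller set of low ones. FPKM divides reads by length, and the longest length used in the high set was 2803 bases (Mrpl3). In the low set, Mrps10 (5067), Mrpl37 (4389), Mrps5 (4298), Mrpl19 (4240), Mrpl33 (3720), Mrpl1 (3391) and Mrpl35 (3307) exceeded it. The other low genes ran from 401 bases (Mrps36) to 2390 (Mrps14). Mrpl37, in the low set with a length of 4389 bases, had 911 to 1359 reads per library. Mrpl39, in the high set with 599 bases, had 574 to 858. The part of length in this split was not tested. No tested member had a mean level between 16.0 FPKM (Mrpl37) and 25.9 FPKM (Mrps18a). Below that gap lay 14 tested members, 7 of each subunit. The lowest 5 of each were, among the large subunit genes, Mrpl35 (8.88 FPKM), Mrpl1 (10.4), Mrpl23 (10.6), Mrpl33 (10.8) and Mrpl19 (11.4), and among the small subunit genes Mrps36 (6.77), Mrps10 (7.94), Mrps14 (8.48), Mrps6 (13.5) and Mrps11 (14.7). Mrpl1 forms the mobile stalk at the exit site for transfer RNA, and Mrpl23 lines the exit of the peptide tunnel. Mrps36 differs from the rest in that its product is assigned in yeast and human cells to the oxoglutarate dehydrogenase complex, not to the ribosome.

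**Figure D1:**
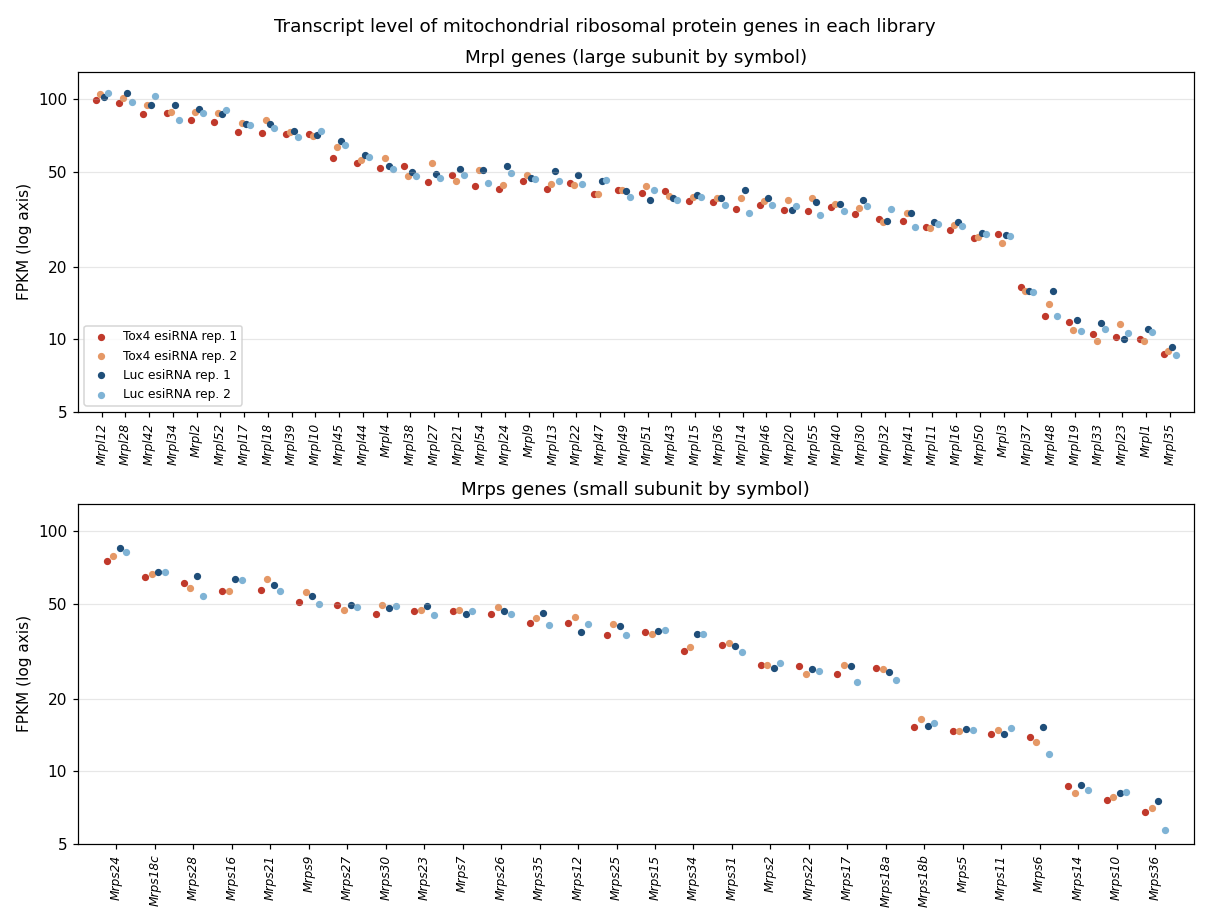
Level of each tested mitochondrial ribosomal protein gene in each library, in FPKM on a log axis, Mrpl genes above and Mrps genes below, ordered by mean; red and orange points are Tox4 esiRNA libraries and dark and light blue points Luc esiRNA libraries. The points of one gene lie close together compared with the spread between genes, from Mrpl12 at a mean of 103 FPKM to Mrps36 at 6.77 FPKM, and no gene has a mean between 16.0 and 25.9 FPKM.

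The plot of levels shows that levels differed between genes far more than between the groups. A single member was left out by the filter on low values. Mrpl53, a large subunit protein without a bacterial relative, had 0.0904 and 0 FPKM in Tox4 esiRNA cells and 0 and 0.0889 FPKM in Luc esiRNA cells, which was at most 1 read in any library. Of its annotated exon bases, 88.0% are shared with a longer gene on the same strand, so reads from it may have been assigned elsewhere or left uncounted.

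Of the 74 tested genes, 3 were lower in Tox4 esiRNA cells, none was higher and 71 did not pass the test (limma, adjusted p under 0.05 over all tested genes). The 3 lower genes were 4.05% of the family, beside 2.62% of all tested genes called lower. At an unadjusted p under 0.05 the count was 7 lower and 0 higher, or 9.46% of the family beside 21.6% of all tested genes. The voom method of limma, run on the recovered reads, called 2 lower (Mrpl24 and Mrps34) and 0 higher, beside 5.87% of all tested genes lower. In bulk RNA, fewer cells of a type and less RNA per cell cannot be told apart.

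Mrpl24 showed the largest fall in the family. Its product is a relative of bacterial L24, a protein that binds early in large subunit assembly. The gene (GRCm38 chr3:87919506-87923672, plus strand) was at 42.3 and 43.8 FPKM in Tox4 esiRNA cells and at 52.9 and 49.2 FPKM in Luc esiRNA cells. The groups did not overlap, although the Luc esiRNA libraries lay further apart than the Tox4 esiRNA libraries. Means were 43.0 ± 1.04 FPKM in Tox4 esiRNA cells and 51.0 ± 2.61 FPKM in Luc esiRNA cells (SD, n = 2 each). On the log2 scale the difference was -0.24 (SE 0.05, 95% interval -0.36 to -0.13), with a limma adjusted p of 0.0494. Reads behind these values numbered 1429 and 1282 in Tox4 esiRNA libraries and 2305 and 1692 in Luc esiRNA libraries.

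Mrpl47, a relative of bacterial L29 at the peptide tunnel exit, also fell. The gene (GRCm38 chr3:32725397-32737605, minus strand) was at 40.5 and 40.1 FPKM in Tox4 esiRNA cells and at 45.5 and 46.2 FPKM in Luc esiRNA cells. Both pairs of libraries were tight and the groups did not overlap. Its mean FPKM fell by 12.1%, which was a log2 difference of -0.18 (SE 0.04) with a limma adjusted p of 0.0484. Its reads were fewer than for the other genes called, with 415 and 357 in Tox4 esiRNA libraries and 602 and 482 in Luc esiRNA libraries.

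The small subunit gene that fell was Mrps34, which has no bacterial relative and is needed in mice for a stable small subunit. The gene (GRCm38 chr17:24895116-24897502, plus strand) was at 31.9 and 32.9 FPKM in Tox4 esiRNA cells and at 37.2 and 37.4 FPKM in Luc esiRNA cells. Again the groups did not overlap, and the mean FPKM fell by 13.2%. On the log2 scale this was -0.20 (SE 0.04), with a limma adjusted p of 0.0484.

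Mrps16, a relative of bacterial S16 that stabilises the small subunit, lay just outside the threshold. It was at 56.1 and 56.2 FPKM in Tox4 esiRNA cells and at 63.5 and 62.4 FPKM in Luc esiRNA cells. Its groups did not overlap either. Its log2 fold change was -0.16 (SE 0.03), with a limma adjusted p of 0.0566.

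All 3 calls lay close to the threshold. Over 12 alternative analyses the limma adjusted p of Mrps34 ranged between 0.0144 and 0.222 and passed in 3, that of Mrpl24 between 0.00287 and 0.227 and passed in 2, and that of Mrpl47 between 0.0259 and 0.234 and passed in 2. None of the 3 passed when any 1 library was left out.

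The 3 genes called lower also share exon sequence with neighbouring genes. Whether counting used the strand is not given in the sources used here, so reads in shared exons cannot be assigned with certainty. For Mrpl24, 26.3% of exon bases overlap Rrnad1 on the opposite strand, for Mrpl47 24.2% overlap Actl6a or Ndufb5, and for Mrps34 63.4% overlap Mapk8ip3 on the opposite strand and 37.0% Nme3 on its own. These shares are of GENCODE M21 exons, whose total equalled the length behind the FPKM for 0 members. The length was 2240 of 2255 exon bases for Mrpl24 and 2039 of 2064 for Mrps34, but 680 of 4419 for Mrpl47. The overlap among the bases counted is therefore not known, least of all for Mrpl47. Rrnad1 averaged 4.90 FPKM in Tox4 esiRNA cells and 5.02 FPKM in Luc esiRNA cells. Mapk8ip3, a scaffold of the JNK kinases, averaged 16.3 FPKM in Tox4 esiRNA cells and 16.4 FPKM in Luc esiRNA cells. Nme3 had 1 read in all libraries together. Actl6a, a subunit of chromatin remodellers, averaged 73.8 FPKM in Tox4 esiRNA cells and 68.6 FPKM in Luc esiRNA cells, a log2 fold change of 0.10 (limma adjusted p = 0.278). None of these neighbours was called. Of the 43 members whose annotated exons overlap no other gene, 0 were called by limma or by voom, and 1 had an unadjusted p under 0.05. Of the 30 tested members with any overlap, 3 were called (10%), beside 4.51% of all tested genes. These were 3 of the 9 with at least 20% overlap and 0 of the 21 with less, of which 0 were called by voom and 2 had an unadjusted p under 0.05. The 20% bound lies below the smallest overlap among the 3 genes called (24.2%), so all of them fall on one side of it. The share called among all tested genes with such overlap was not computed. The part of shared exons in these calls was not tested.

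Most members differed little between the groups. The median log2 fold change of the family was -0.02, that of the Mrpl genes -0.03 and that of the Mrps genes 0.0031, beside -0.0034 for all tested genes. Both subunit medians changed sign with a library left out, the Mrpl median lying between -0.057 and 0.012 and the Mrps median between -0.035 and 0.0094. Of the Mrpl genes 30 had a value below 0 and 16 above, and of the Mrps genes 13 were below and 15 above. Middle values of the family lay between -0.06 and 0.03 at the quartiles, beside -0.08 and 0.08 for all tested genes. Libraries of the 2 groups did not overlap for 25 of 74 members, or 33.8%, beside 52.0% of all tested genes. In 19 of them (25.7% of the family) Tox4 esiRNA cells were lower, beside 26.7% of all tested genes, and in 6 (8.11%) higher, beside 25.3%. The 95% interval of the difference lay within 1.2-fold in both directions for 63 of 74 members (85.1%), beside 55.1% of all tested genes. Members also had a smaller median SE (0.050) than all tested genes (0.061). Neither trait was particular to the family. Among nuclear-encoded respiratory chain genes 87.7% of intervals lay within 1.2-fold and 34.2% of genes did not overlap. Among cytosolic ribosomal protein genes these shares were 96.2% and 17.9%. Of the members, Mrps36 (-0.23 to 0.36) and Mrpl48 (-0.37 to 0.19) had the widest intervals, which therefore allow changes of a size that most members do not.

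**Figure D2:**
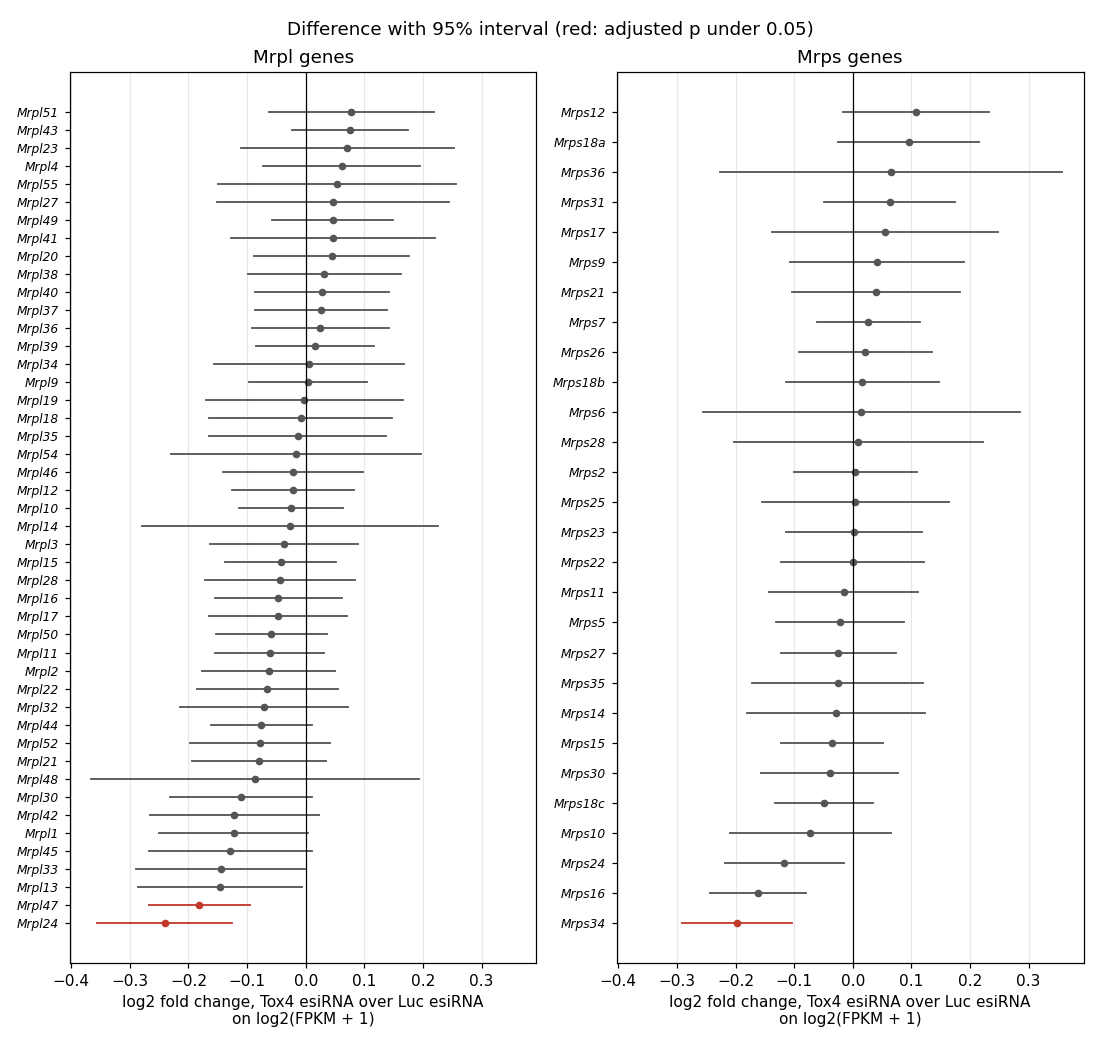
Log2 fold change of each member, Tox4 esiRNA over Luc esiRNA, on the log2(FPKM + 1) scale (x axis), with its 95% interval from limma as a line, Mrpl genes on the left and Mrps genes on the right, ordered by value; red marks an adjusted p under 0.05. Values run between -0.24 for Mrpl24 and 0.11 for Mrps12, and most intervals cross 0.

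The ordered plot of differences shows no break between the genes called and their neighbours. In the large subunit the next lowest values after Mrpl24 and Mrpl47 were those of Mrpl13 (-0.15), Mrpl33 (-0.15), Mrpl45 (-0.13) and Mrpl1 (-0.12), with limma adjusted p between 0.216 and 0.268. Mrpl13 was at 42.2 and 44.2 FPKM in Tox4 esiRNA cells and at 50.4 and 45.5 FPKM in Luc esiRNA cells. Its groups stood apart by little, because the 2 Luc esiRNA libraries differed from each other more than the groups did at their nearest points. Mrpl45, which sits at the tunnel exit and tethers the ribosome to the inner membrane, was at 57.0 and 63.5 FPKM in Tox4 esiRNA cells and at 67.2 and 64.6 FPKM in Luc esiRNA cells. Mrps24 (-0.12), Mrps10 (-0.07) and Mrps18c (-0.05) followed Mrps34 and Mrps16 in the small subunit, and none of these passed.

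At the other end, the largest positive values did not pass the test either, and 5 of the 10 (5 per subunit) fell below 0 when some library was left out. Mrps12, a relative of the bacterial decoding protein S12, was at 41.5 and 43.8 FPKM in Tox4 esiRNA cells and at 38.1 and 41.0 FPKM in Luc esiRNA cells. The groups did not overlap but came within less than 1 FPKM of each other, and the log2 fold change of 0.11 had a limma adjusted p of 0.293. Mrps18a, one of 3 Mrps genes related to bacterial S18, was at 26.9 and 26.6 FPKM in Tox4 esiRNA cells and at 25.95 and 24.03 FPKM in Luc esiRNA cells (log2 fold change 0.10). Its relatives Mrps18b and Mrps18c had log2 fold changes of 0.02 and -0.05, none called. Mrps36 (0.07), Mrps31 (0.06) and Mrps17 (0.05) followed in the small subunit. In the large subunit the highest were Mrpl51 (0.08), Mrpl43 (0.08), Mrpl23 (0.07), Mrpl4 (0.06) and Mrpl55 (0.05). Of the large subunit genes, 2 of 46 (4.35%) were called lower, and of the small subunit genes 1 of 28 (3.57%), beside 2.62% of all tested genes.

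Symbols do not follow the assembled particle throughout. In mammalian structures the products of Mrps18a and Mrps30 sit in the large subunit, and Mrps36 belongs to neither. Grouped that way, 48 large subunit genes had a median log2 fold change of -0.03 and 25 small subunit genes one of 0.0017, so the grouping changed neither median by as much as 0.01. Members with a relative in bacteria (48 tested) had a median of -0.02 and those without (26 tested) one of 0.00063. The difference between these medians was not tested.

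Summed over genes, the large subunit came to 2052 and 2150 FPKM in Tox4 esiRNA cells and to 2193 and 2118 FPKM in Luc esiRNA cells. The small subunit came to 1009 and 1039 FPKM in Tox4 esiRNA cells and to 1058 and 1015 FPKM in Luc esiRNA cells. In both sums the groups overlapped. The ratio of large to small was 2.03 and 2.07 in Tox4 esiRNA cells and 2.07 and 2.09 in Luc esiRNA cells, lower in both Tox4 esiRNA libraries before rounding, but by less at the nearest values than the libraries of a pair differed. With genes placed by structure the ratio was 2.28 and 2.33 in Tox4 esiRNA cells and 2.32 and 2.34 in Luc esiRNA cells, and the groups overlapped. Most of the measured messenger RNAs that this ribosome translates were higher in Tox4 esiRNA cells. Mitochondrially encoded protein genes summed to 7888 and 7884 FPKM in Tox4 esiRNA cells and to 6418 and 6238 FPKM in Luc esiRNA cells, and 6 of the 9 tested were called higher, beside 1.89% of all tested genes. The well-expressed mt-Nd6 overlapped between the groups, at 75.6 and 78.2 FPKM in Tox4 esiRNA cells and 77.5 and 76.4 FPKM in Luc esiRNA cells. Neither mt-Atp6 nor mt-Co3 passed, at means of 3.40 and 1.47 FPKM and 12 to 41 reads per library, while mt-Co1 averaged 2961 FPKM. How counting treated reads that match several places is not given, so reads of mt-Atp6 and mt-Co3 may have gone uncounted. Whether these 2 RNAs changed therefore cannot be told. The largest rise was that of mt-Cytb. For mt-Cytb, cytochrome b of complex III, the values were 1719 and 1746 FPKM in Tox4 esiRNA cells and 1200 and 1176 FPKM in Luc esiRNA cells (log2 fold change 0.54, limma adjusted p = 0.00327). The ratio of mitochondrially encoded to mitochondrial ribosomal protein RNA was thereby 2.58 and 2.47 in Tox4 esiRNA cells and 1.97 and 1.99 in Luc esiRNA cells. This ratio was higher in both Tox4 esiRNA libraries, by far more than the libraries of a pair differed.

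**Figure D3:**
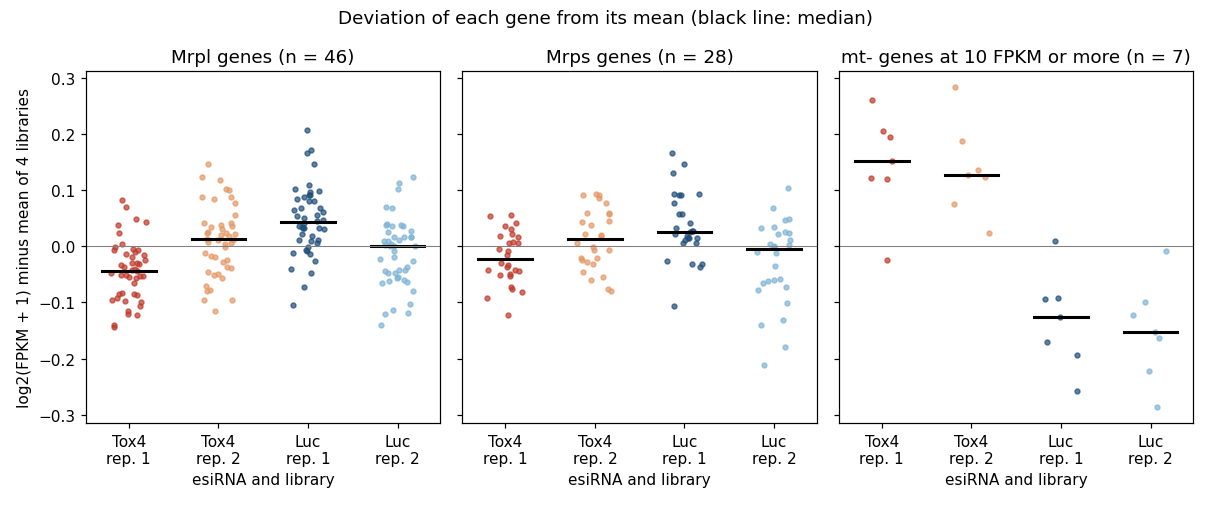
Deviation of each gene's log2(FPKM + 1) in each library from its mean over the 4 libraries, for the 46 Mrpl genes (left), the 28 Mrps genes (middle) and the 7 mitochondrially encoded genes at 10 FPKM or more (right); the black line is the median. Medians for Mrpl genes run -0.04, 0.01, 0.04 and -0.00023 in the order Tox4 esiRNA 1 and 2 and Luc esiRNA 1 and 2, while the mitochondrially encoded genes lie at 0.15 and 0.13 in the Tox4 esiRNA libraries and at -0.13 and -0.15 in the Luc esiRNA libraries.

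The plot of deviations also shows that libraries of the same group differed over the family. Of the 74 members, 52 (70.3%) were higher in the second than in the first Tox4 esiRNA library, beside 50.03% of all tested genes. In the Luc esiRNA pair, 56 members (75.7%) were higher in the first than in the second library, beside 49.5% of all tested genes. Cytosolic ribosomal protein genes went the same way in both pairs, 78 of 78 and 74 of 78. Nuclear-encoded respiratory chain genes did so in 61 and 59 of 73. Tested genes outside these lists with an effective length under 1500 bases did so in 61.3% and 56.7%. The typical gap between the group means of a member (median 0.05 on the log2 scale) was smaller than the typical gap within the Tox4 esiRNA pair (0.07) or within the Luc esiRNA pair (0.07). Over all tested genes the group gap (0.08) was the larger. The group gap exceeded both gaps within pairs for 18 of 74 members (24.3%), beside 40.4% of all tested genes.

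Other nuclear genes of mitochondrial translation gave no calls in limma. Over all tested genes, limma called 4.51%, voom called 11.8%, and 21.6% had an unadjusted p under 0.05. Of 7 mitochondrial ribosomal proteins under other names, 0 were called, 2 had an unadjusted p under 0.05, both lower, and voom called 1 lower. The gene called by voom was Chchd1, a small subunit protein of the mitochondrial type, at 83.8 and 83.6 FPKM in Tox4 esiRNA cells and at 98.7 and 92.7 FPKM in Luc esiRNA cells. Its groups did not overlap, its log2 fold change was -0.19, and its limma adjusted p was 0.0607 on the FPKM values and 0.0358 by voom. Gadd45gip1, a large subunit protein also known as CRIF1, had a log2 fold change of -0.13 (limma adjusted p = 0.109). Of 24 tested factors that assemble the ribosome or modify its RNA, 0 were called by limma or by voom and 0 had an unadjusted p under 0.05, with Mettl17 at -0.12 and Mpv17l2 at -0.11 the furthest from 0. Of 14 translation factors, 0 were called by either method and 1 had an unadjusted p under 0.05. That was Mtif3, the initiation factor, at 6.45 and 6.80 FPKM in Tox4 esiRNA cells and at 7.92 and 7.72 FPKM in Luc esiRNA cells (log2 fold change -0.21, limma adjusted p = 0.118). Lrpprc, which stabilises mitochondrial messenger RNA, had a log2 fold change of 0.07.

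Upstream of these genes, 8 tested factors of mitochondrial DNA transcription and maintenance had 0 calls by either method and 0 unadjusted p under 0.05, with Tfb2m, a transcription factor of the mitochondrial genome, at 0.12 and Polg2 at -0.09. Among 8 tested regulators of nuclear genes for mitochondria, 0 were called by limma, 2 had an unadjusted p under 0.05, both higher, and voom called 1 higher. Myc was at 17.8 and 19.1 FPKM in Tox4 esiRNA cells and at 16.5 and 15.8 FPKM in Luc esiRNA cells (log2 fold change 0.18, limma adjusted p = 0.126). Pprc1, a coactivator of respiratory genes, was at 26.1 and 27.0 FPKM in Tox4 esiRNA cells and at 23.5 and 24.0 FPKM in Luc esiRNA cells (log2 fold change 0.15, limma adjusted p = 0.1002, by voom 0.0399). For comparison, of 78 tested cytosolic ribosomal protein genes 2 were called lower and 0 higher (median -0.01). Of these 78, 3 were lower and 0 higher both at an unadjusted p under 0.05 (3.85%) and by voom. Of 73 nuclear-encoded respiratory chain genes 0 were called by limma (median -0.02), and voom called 1 higher and 2 lower. At an unadjusted p under 0.05, 2 of the 73 were higher and 9 lower (15.1%). Over all tested genes, 21.6% had an unadjusted p under 0.05 and voom called 11.8%.

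The member genes lie apart in the genome but often next to another gene's start. The 74 members found in the GENCODE M21 annotation lay on 17 chromosomes, with at most 10 on one. A protein-coding gene on the opposite strand started within 1000 bases of the member's start, on either side, for 32 of 73 tested members (43.8%). This held for 23 of 45 Mrpl genes (51.1%) and 9 of 28 Mrps genes (32.1%), beside 17.1% of 11490 tested protein-coding genes. Such pairs are called head to head here, also where a start lies inside the other gene. The start of Ndufb5 lay 615 bases inside Mrpl47 and that of Twnk 779 bases inside Mrpl43. Pairs of this overlapping kind were not counted apart. Of 28 tested partners outside the family, 2 were called higher and 0 lower, beside 1.89% and 2.62% of all tested genes. Their median log2 fold change was -0.04.

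In both pairs with a called partner, the partner changed while the member did not pass the test. Ppp1r10, which encodes PNUTS, the scaffold of the PTW/PP1 complex that also holds Tox4, starts 45 bases from Mrps18b on chromosome 17. Ppp1r10 was at 30.3 and 29.8 FPKM in Tox4 esiRNA cells and at 17.1 and 17.9 FPKM in Luc esiRNA cells, which on the log2 scale was 0.75 higher (SE 0.04) with a limma adjusted p of 0.00228. Mrps18b was at 15.3 and 16.5 FPKM in Tox4 esiRNA cells and at 15.5 and 15.9 FPKM in Luc esiRNA cells. The Mrps18b groups overlapped, and its log2 fold change of 0.02 had a 95% interval of -0.11 to 0.15. Tmem63b, the partner of Mrpl14, averaged 37.2 FPKM in Tox4 esiRNA cells and 32.1 FPKM in Luc esiRNA cells (log2 fold change 0.21, limma adjusted p = 0.0406), while Mrpl14 had a log2 fold change of -0.03. The 2 called members with such a partner gave the opposite picture. Ndufb5, a complex I subunit that pairs with Mrpl47, had a log2 fold change of 0.00026, and Eme2, an endonuclease subunit that starts 29 bases from Mrps34, had one of 0.15 (limma adjusted p = 0.495). Mrpl46 and Mrps11, a large and a small subunit gene, lie head to head with overlapping exons and had log2 fold changes of -0.02 and -0.02.

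**Figure D4:**
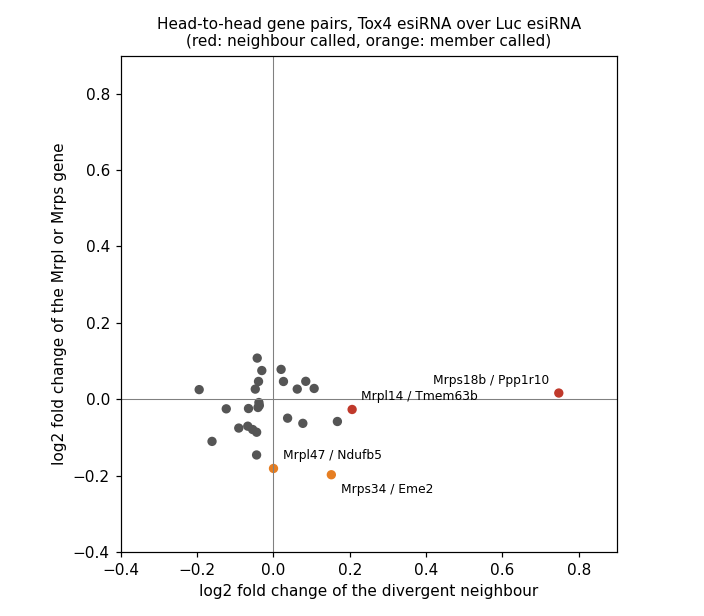
Log2 fold change, Tox4 esiRNA over Luc esiRNA, of each member (y axis) against that of its tested head-to-head neighbour outside the family (x axis), 1 point per pair; red marks pairs whose neighbour and orange pairs whose member had a limma adjusted p under 0.05. Ppp1r10 lies far to the right at 0.75 with Mrps18b at 0.02, and no pair has both genes called.

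The plot of pairs thus holds no case in which both genes of a pair were called. With so few genes called among the pairs, such a case would be rare in any event. No conclusion about shared regulation is drawn from its absence.

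Windows around the start of 66 of the 75 members were matched by symbol in RefSeq promoter sequences of GRCm38.p6, each covering 250 bases before and 50 after the start, and searched on both strands for exact letters. Some genes, such as Mrpl48, have several windows, and a gene was counted once if any of its windows matched. The NRF1 motif, bound by a regulator of nuclear genes for mitochondria, was found for 12 members (18.2%), beside 12.0% of 8882 tested genes and 5.19% of all 27025 genes. It was found for 9 of 41 Mrpl genes (22.0%) and for 3 of 25 Mrps genes (12.0%). CCGGAAGT, the core of ETS factors such as GABPA, was found for 12 members (18.2%), beside 9.42% of tested genes and 4.31% of all. AAGATGGCG, the YY1 motif, was in 8 (12.1%), beside 3.82% of tested genes and 1.64% of all. The ZNF143 motif was in 4 (6.06%), all of them Mrpl genes, beside 2.86% of tested genes and 1.17% of all. GGGCGGG (SP1) was in 27 (40.9%), beside 54.8% of tested genes and 27.9% of all. CCAAT (NFY) was in 27 (40.9%), beside 43.8% of tested genes and 41.1% of all. The letters TATAAA of a core promoter were in 5 (7.58%), beside 8.15% of tested genes and 15.7% of all. The NRF1 and ZNF143 letters are those in capitals in the sequences printed next, with any base at 1 position. A match is a stretch of letters and no measure of binding, which was not assayed.

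The sequences that follow are the bases before the first annotated exon, 5′ to 3′ on the gene's own strand, of the gene with the largest fall, the gene with the highest level, a gene with 2 NRF1 matches and the gene not called that had the lowest adjusted p. Capitals mark the motif letters, on either strand. Mrpl24 (chr3:87919294-87919505, plus strand) carries the ZNF143 motif, Mrpl12 (chr11:120484387-120484612, plus strand) the NRF1 motif, Mrpl45 (chr11:97315466-97315715, plus strand) the reverse complement of the NRF1 motif at both places, and Mrps16 (chr14:20393635-20393884, minus strand) the reverse complement of CCAAT followed by the SP1 motif.
Mrpl24: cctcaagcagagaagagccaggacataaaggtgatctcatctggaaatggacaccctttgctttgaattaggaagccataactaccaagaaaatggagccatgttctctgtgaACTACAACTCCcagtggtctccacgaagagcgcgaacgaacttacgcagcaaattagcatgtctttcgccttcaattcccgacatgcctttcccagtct
Mrpl12: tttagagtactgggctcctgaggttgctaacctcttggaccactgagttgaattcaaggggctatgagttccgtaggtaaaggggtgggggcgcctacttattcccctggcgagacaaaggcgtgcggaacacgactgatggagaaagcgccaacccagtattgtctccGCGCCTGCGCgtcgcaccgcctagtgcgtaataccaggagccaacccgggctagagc
Mrpl45: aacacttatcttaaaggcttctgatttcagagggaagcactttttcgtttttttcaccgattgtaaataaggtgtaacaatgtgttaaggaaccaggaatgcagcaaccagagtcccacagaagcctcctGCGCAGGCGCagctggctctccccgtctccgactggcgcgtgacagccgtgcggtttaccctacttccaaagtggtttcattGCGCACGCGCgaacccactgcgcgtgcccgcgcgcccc
Mrps16: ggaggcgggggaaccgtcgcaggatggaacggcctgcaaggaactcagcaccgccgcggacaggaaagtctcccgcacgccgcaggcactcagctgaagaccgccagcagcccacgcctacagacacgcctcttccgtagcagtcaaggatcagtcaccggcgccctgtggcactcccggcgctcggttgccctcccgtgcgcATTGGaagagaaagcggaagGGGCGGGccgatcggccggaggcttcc
Of these 4 genes, Mrpl24 was called lower. Mrpl12, at the top of the levels, had a log2 fold change of -0.02, Mrpl45 one of -0.13 and Mrps16 one of -0.16.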

How the data were processed

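RNA-seq libraries of 2 Tox4 esiRNA and 2 Luc esiRNA samples were compared. Values were deposited as FPKM by the authors, and the 4 per-library files hold the same values as the series table. Per the submitters' processing notes, CASAVA 1.8, STAR 2.3.0e and the build GRCm38.p1 were used; the counting program, its annotation, its use of strand and its handling of reads that match several places are unknown (not given in the sources used here), and members with close copies elsewhere in the genome are uncertain. In each library the FPKM of a gene are whole multiples of what 1 read is worth, which gave the reads: 100% of values above 0 came out whole within 1e-06 reads, and members had 35 to 3096 reads per library when tested. Counting error is therefore largest for Mrps36. It follows reads and not FPKM: Mrpl37, among the low genes, had 911 to 1359 reads per library, and the higher Mrpl41 had 249 to 368.

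log2(FPKM + 1) of genes averaging 1 FPKM or more was fitted over all 4 libraries with limma 3.58.1 in R 4.3.3 (trended empirical Bayes, two-sided), with Benjamini-Hochberg adjustment over 12403 genes and a threshold of 0.05. A fold change on this scale understates the change of low genes, and intervals are 95% intervals of single genes, set against a 1.2-fold bound chosen after values were seen. The script was tested on simulated data. Members, gene lists and the genes named were chosen with earlier results of these data known. Named are Tox4, every member past the threshold, in each subunit the 5 largest changes each way and the 5 highest and 5 lowest levels, members removed by the filter, and from other lists up to 4 genes past the threshold or the 2 largest changes; other members and neighbouring genes were named after their values were seen. Gene positions and exon overlaps come from GENCODE M21 (GRCm38), in which the identifier of Mrpl33 was not found, and promoter sequences from RefSeq. Alternatives were other pseudocounts, other filters, median-ratio scaling, no intensity trend, a replicate block, voom on the recovered reads, and each library left out.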

Additional observations from a re-analysis of the deposited data

How the results depend on the processing

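The count of 3 members lower became 0 with a pseudocount of 0.1, with no filter, with median-ratio scaling, with no intensity trend and with the replicate block, and 0 to 0 when each library was left out; it was 2 with a pseudocount of 0.5 and by voom, and 4 with a filter at a mean of 5 FPKM. No alternative called a member higher. All-gene counts also moved, most by over 1.5 times: higher genes (234) to 146 with no filter, 365 at 5 FPKM, 33 without the trend, 738 by voom and 27 to 176 with a library left out, and lower genes (325) to 202, 476, 45, 728 and 34 to 296 in the same order. With the replicate block 222 were higher and 334 lower; same-numbered libraries did not deviate together (correlation -0.0363 over 2 pairs), so the numbers were not taken to pair them. With a library left out, the median log2 fold change of Mrpl genes lay between -0.057 (without Luc esiRNA 2) and 0.012 (without Luc esiRNA 1), that of Mrps genes between -0.035 and 0.0094, and the Mrpl minus Mrps difference between -0.029 and 0.0027. Of the 10 largest positive members, 5 changed sign with a library left out: Mrpl23 (-0.017 to 0.16), Mrpl4 (-0.0098 to 0.13), Mrpl55 (-0.038 to 0.15), Mrps17 (-0.050 to 0.16) and Mrps36 (-0.11 to 0.24), as did the fibroblast marker Thy1 (-0.0030 to 0.27). Of the markers called, Ncam1 (adjusted p up to 0.148), Sox2 (0.179) and Tdgf1 (0.141) lost their limma calls in some alternatives. The smallest difference these libraries could detect was not estimated.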
